A study of Arabidopsis thaliana with 10 samples.

Results

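The comparison sets Arabidopsis thaliana seedlings that lack HOS15 against seedlings that lack POWERDRESS (PWR), and asks what separates these non-enzymatic partners of the histone deacetylase HDA9. It rests on the FPKM column of hos15-2 (line SALK_064435) against that of pwr (line SALK_071811C). Each column is the authors' single value per gene over 2 labelled libraries, so the comparison covers 4 of the 10 libraries of the series. The other columns shown beside them are hda9 (SALK_007123), the double mutant hda9 SALK_007123 hos15-2 SALK_064435, and the Columbia-0 wild type, called Col. Every genotype is a T-DNA line or Col grown alike: whole seedlings of 7 days, kept at 23 °C with 16 h of light and 8 h of darkness and collected at ZT 12 (12 h after lights-on), per the labels. Each mutant is represented by 1 insertion line, and whole seedlings mix all organs, so fewer cells of a type and less RNA per cell cannot be told apart.

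HDA9 removes acetyl groups from histone tails, which generally lowers transcription of the gene that carries them. PWR carries SANT domains, and HOS15 is built of WD40 repeats. Their relatives in animals sit together in corepressor complexes, where the SANT protein activates the deacetylase and the WD40 protein contacts histones. HOS15 is also known for its part in cold responses, and PWR for its part in flower development and senescence.

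Differences are given as log2(FPKM + 1) in hos15 minus that in pwr, so a positive value means higher in hos15, and the added 1 understates the fold of weakly expressed genes. FPKM is a level scaled to transcript length and to the fragments sequenced. A gene is called higher or lower when the difference is at least 1 on this scale (2-fold), among rows that reach an FPKM of 1 in 2 or more of the 5 columns. With 1 value per genotype there is no replicate error, no test and no p-value, the depth is unknown, and every call describes these columns only. The columns summed to 1142805 FPKM in hos15 and 1326086 FPKM in pwr. One row, AT2G01021, made up 7.05% of that sum in hos15 and 13.9% in pwr. Markers of shoot (6 of 6) and root (8 of 10) reached an FPKM of 1 in hos15 or pwr, with summed levels of 33338 and 1136 FPKM in hos15 and 40741 and 980 FPKM in pwr. The root sum is mostly PYK10, at 1086 FPKM in hos15 and 927 FPKM in pwr, and 6 of the 8 root markers were below 0 in difference, with a median of -0.10. Of 5 flower markers only PISTILLATA reached it, at 1.07 FPKM in hos15 and 0.934 FPKM in pwr, and none of 5 seed storage and embryo markers did.

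The mutated genes were looked at first. PWR (AT3G52250, chromosome 3) stood at 12.1 FPKM in hos15 and 2.18 FPKM in pwr, with 9.76 in hda9, 10.2 in the double mutant and 8.38 in Col. The difference was 2.04, a 5.55-fold ratio of FPKM. HOS15 (AT5G67320, chromosome 5) stood at 2.16 FPKM in hos15 and 3.17 FPKM in pwr, with 4.37 in hda9, 1.89 in the double mutant and 16.2 in Col. HOS15 RNA was therefore low in the pwr column too, and the difference between hos15 and pwr was -0.40. HDA9 (AT3G44680, chromosome 3) stood at 10.7 FPKM in hos15 and 10.9 FPKM in pwr, above its 7.79 FPKM in Col. The column labelled pwr is thus marked off by PWR itself, while HOS15 RNA does not set the hos15 and pwr columns 2-fold apart.

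Of 18912 rows compared, 162 were higher in hos15 (0.857% of the rows) and 65 were lower (0.344%). The median difference over all rows was 0.08, with quartiles of -0.09 and 0.27. The excess of higher calls depended on scaling: 116 were higher and 73 lower with median-ratio scaling, 89 and 78 with quantile normalization, and 233 and 53 when AT2G01021 was left out and the other rows were brought to one sum. Among 18079 protein-coding genes with a transcript of at least 300 nt, 113 were higher (0.625%) and 20 were lower (0.111%). The remaining 833 rows gave 49 higher calls (5.88%) and 45 lower calls (5.4%). They include 212 rows that join several loci, 140 long non-coding RNAs and 90 protein-coding genes with a transcript under 300 nt. Of protein-coding genes, 89.5% differed by less than 0.5 on the log2 scale.

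**Figure D1:**
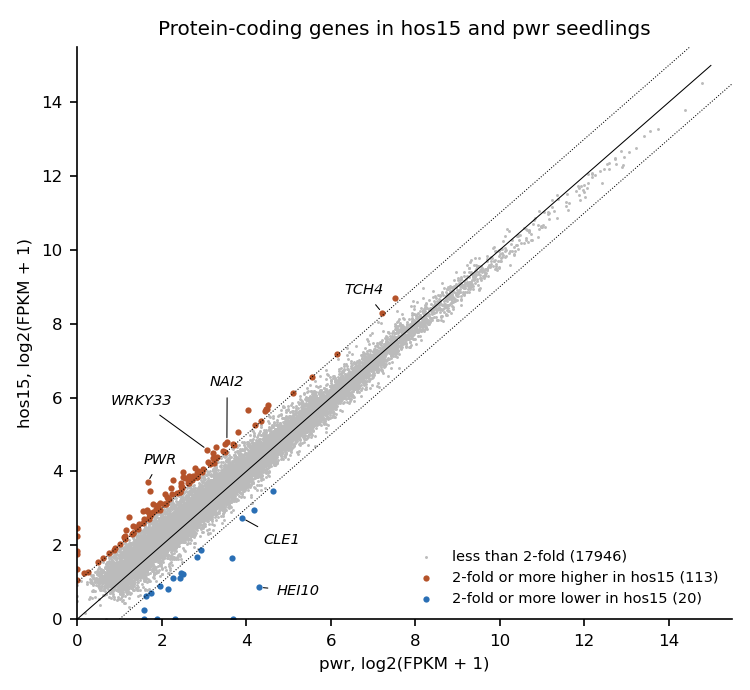
Level of each protein-coding gene in pwr (horizontal axis) and in hos15 (vertical axis), both as log2(FPKM + 1). The solid line marks equal levels and the dotted lines a 2-fold difference. The 113 genes higher in hos15 include PWR, WRKY33, NAI2 and TCH4, and the 20 lower include HEI10 and CLE1.

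The 113 higher genes fell into groups that differed in where Col lay. In 76 of them Col stood above both mutants, in 27 it lay between hos15 and pwr, and in 10 it stood below both. Over all 18079 protein-coding genes these numbers were 8479, 2789 and 6811. In 80 of the 113, pwr was at least 2-fold below Col, and in 38 of the 113 hos15 was as well. In 18 of the 113, hos15 was at least 2-fold above Col, and pwr was in none of them. Among all 18079 protein-coding genes, 2.31% were 2-fold below Col in hos15 and 7.49% in pwr, while 1.02% were 2-fold above Col in hos15 and 1.71% in pwr. These contrasts with Col share a column with the comparison, so the counts place the genes and do not support it.

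The first group consisted of rapidly induced stress regulators that were higher in hos15 and hda9 than in pwr and the double mutant. Their place relative to Col varied: hos15 minus Col was 0.37 for WRKY33, 0.61 for WRKY18 and -0.29 for WRKY70. It was 1.49 for WRKY40, 2.23 for ERF105 and 1.41 for TCH4. WRKY33, a transcription factor needed for resistance to necrotrophic fungi, stood at 23.0 FPKM in hos15 and 7.46 FPKM in pwr, with 20.7 in hda9, 6.38 in the double mutant and 17.65 in Col. Its difference was 1.51, a 3.09-fold ratio of FPKM. WRKY40, a pathogen-induced repressor of defence and abscisic acid responses, stood at 16.2 FPKM in hos15 and 5.87 FPKM in pwr, with 19.7 in hda9, 2.83 in the double mutant and 5.14 in Col. Its close relative WRKY18 stood at 26.0 FPKM in hos15 and 10.3 FPKM in pwr, with 21.7 in hda9, 5.52 in the double mutant and 16.6 in Col. For WRKY40 and WRKY18 the double mutant was the lowest of the 5 columns although both of its single mutants were high, and the same held for WRKY33. WRKY33, WRKY40 and PWR overlap annotated genes on the opposite strand, and whether the authors counted by strand is not stated. Genes named below that do so include ERF105, RPP13, RIP5 and MFP1, and 27.7% of all protein-coding genes do.

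WRKY70, which acts in salicylic acid signalling, stood at 6.15 FPKM in hos15 and 2.35 FPKM in pwr, with 5.18 in hda9, 2.08 in the double mutant and 7.71 in Col. Over the whole WRKY family 50 genes were measured: 4 were higher, none was lower, and the median difference was 0.27 against 0.08 for all rows. Among all protein-coding genes 0.625% were higher. The ethylene-response factor gene ERF105 stood at 21.8 FPKM in hos15 and 8.20 FPKM in pwr, with 23.6 in hda9, 4.52 in the double mutant and 3.86 in Col. ERF13, another member of that family, stood at 3.47 FPKM in hos15 and 1.19 FPKM in pwr, with 5.43 in hda9, 1.15 in the double mutant and 0.356 in Col. For both, hos15 and hda9 lay well above Col, and pwr and the double mutant lay between.

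TCH4, a touch-induced enzyme that remodels cell-wall xyloglucan, stood at 314 FPKM in hos15 and 148 FPKM in pwr, with 270 in hda9, 57.0 in the double mutant and 117 in Col. CYP707A3, an enzyme that inactivates abscisic acid, stood at 14.8 FPKM in hos15 and 4.66 FPKM in pwr, with 10.7 in hda9, 2.80 in the double mutant and 5.36 in Col. Of the other 29 measured abscisic acid genes none reached 2-fold, and the median of the list was 0.04. In the list of wound, touch and ethylene-response regulators, 25 genes were measured, of which 5 were higher (WRKY33, WRKY40, ERF105, TCH4 and ERF13) and none was lower. The list had a median of 0.45, and 20 of its 25 members lay above the median of all rows. It was chosen with earlier results of these data known, and 0.625% of all protein-coding genes were higher. The jasmonate list held 28 measured genes with a median of 0.19 and no call, but its repressor genes JAZ7 and JAZ1 came close, with differences of 0.98 and 0.97. JAZ7 stood at 11.2 FPKM in hos15 and 5.17 FPKM in pwr, with 10.3 in hda9, 3.096 in the double mutant and 7.78 in Col.

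**Figure D2:**
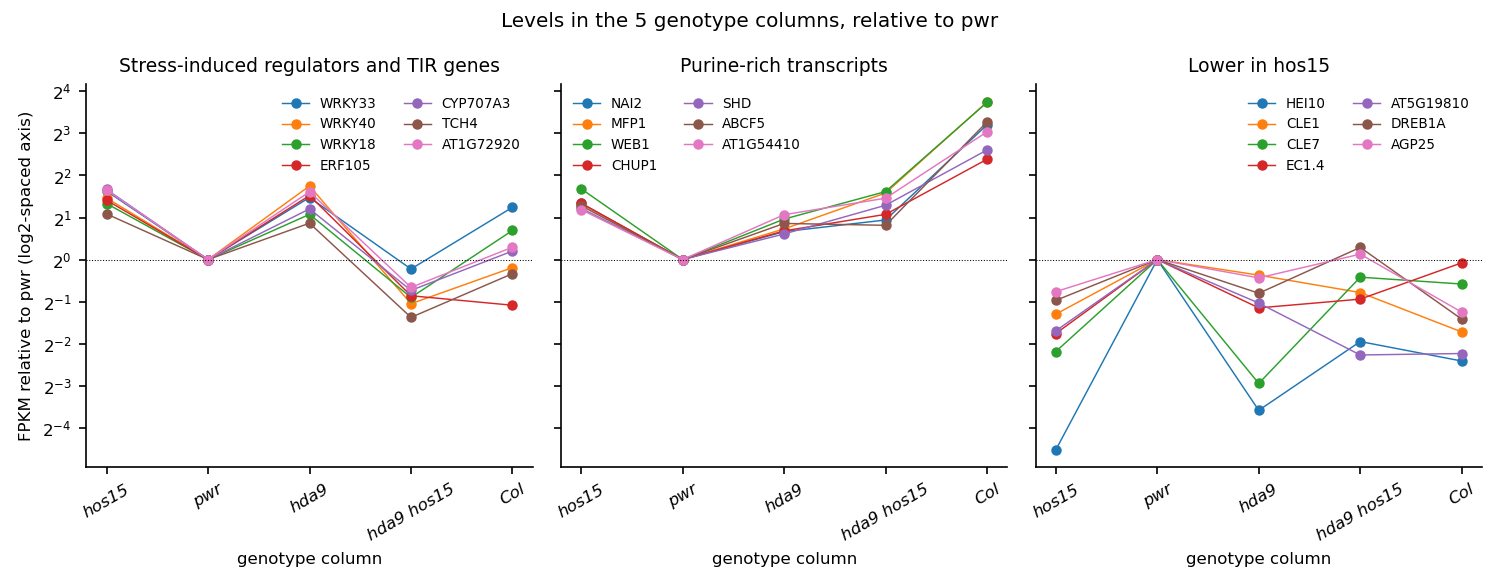
FPKM of selected genes in the 5 genotype columns, each divided by its FPKM in pwr, on a log2-spaced axis; lines join the values of a gene. Genes of the left panel are high in hos15 and hda9 and low in the double mutant, genes of the middle panel are highest in Col and lowest in pwr, and genes of the right panel are lower in hos15 than in pwr.

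The contrast of the double mutant with hda9 shares no column with hos15 or pwr and adds a reading of the same genes. Over all protein-coding genes 1.33% were 2-fold lower in the double mutant than in hda9 and 0.194% higher, and the median was 0.00. Of the 113 genes higher in hos15 than in pwr, 19 were lower in the double mutant than in hda9 and 3 were higher, with a median of 0.09. The 18 genes that also stood 2-fold above Col in hos15 behaved otherwise: 13 of them were 2-fold lower in the double mutant than in hda9, and their median was -1.44. The remaining 95 had a median of 0.16, with 6 lower. Against Col, which the comparison does not use either, 61 of the 113 were lower in hda9 and 14 higher, where 4.34% of all protein-coding genes were lower and 1.81% higher. In the double mutant against Col 64 of the 113 were lower and 3 higher, where 3.72% of all were lower and 1.26% higher. In 12 of the 18 the double mutant also stood below pwr, and in 10 of the 18 it stood below Col. In 12 of the 18 hda9 was at least 2-fold above Col. The 18 were picked for pwr and Col lying below hos15, so their counts against pwr and Col only describe them. WRKY40, ERF105, ERF13, TCH4 and CYP707A3 were among the 18, and so was AT5G19240, at 144 FPKM in hos15 and 69.7 FPKM in pwr. Of the 18, 3 were listed at 0 in at least 1 column.

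**Figure D3:**
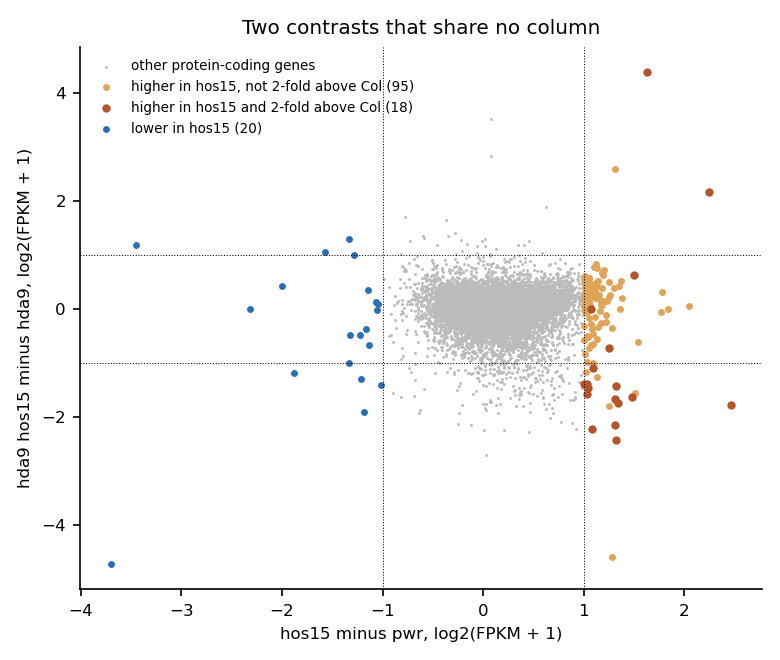
Each protein-coding gene by its difference between hos15 and pwr (horizontal axis) and between the double mutant and hda9 (vertical axis), both on the log2(FPKM + 1) scale; dotted lines mark 2-fold. Of the 18 genes 2-fold above both pwr and Col in hos15, 13 lie below the lower dotted line, against 6 of the other 95 genes higher in hos15.

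The sequences just upstream of the WRKY genes are shown because WRKY proteins bind the W box, whose core reads TTGAC, or on the opposite strand GTCAA, and because these genes were high and low in the same columns. Each run below is the 300 nt before the annotated gene start, from RefSeq on build TAIR10.1, read on the strand of the gene, with W box cores in capitals.
WRKY33 chr2:16107935-16108234, plus strand: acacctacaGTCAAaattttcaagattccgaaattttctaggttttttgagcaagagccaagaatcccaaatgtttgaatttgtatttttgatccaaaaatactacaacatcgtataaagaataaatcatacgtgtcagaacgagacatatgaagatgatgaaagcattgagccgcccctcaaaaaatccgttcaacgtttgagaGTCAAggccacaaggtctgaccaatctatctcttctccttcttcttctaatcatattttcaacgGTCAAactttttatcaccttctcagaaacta
WRKY40 chr1:30383261-30383560, plus strand: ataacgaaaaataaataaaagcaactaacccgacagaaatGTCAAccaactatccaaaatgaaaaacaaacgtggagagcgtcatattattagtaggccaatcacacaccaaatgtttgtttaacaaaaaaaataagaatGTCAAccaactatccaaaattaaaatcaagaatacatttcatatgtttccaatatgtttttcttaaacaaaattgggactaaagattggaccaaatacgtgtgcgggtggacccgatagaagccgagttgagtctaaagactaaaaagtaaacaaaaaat
WRKY18 chr4:15382477-15382776, plus strand: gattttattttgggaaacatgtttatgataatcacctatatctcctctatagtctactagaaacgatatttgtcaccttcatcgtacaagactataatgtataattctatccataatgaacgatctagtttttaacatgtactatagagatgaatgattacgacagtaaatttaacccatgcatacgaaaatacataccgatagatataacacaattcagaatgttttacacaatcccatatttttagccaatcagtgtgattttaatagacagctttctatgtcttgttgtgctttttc
The W box core occurred 3 times before WRKY33, 2 times before WRKY40 and 0 times in this window before WRKY18. Searched on both strands, it stood before 13 of the 18 genes 2-fold above both pwr and Col in hos15 (72.2%), before 61 of the 113 higher genes (53.98%), before 5 of the 20 lower genes and before 50.4% of 18078 protein-coding genes with a full window. The rapid stress response element CGCGTT, which on the opposite strand reads AACGCG, stood before 2 of the 18, 7 of the 113 and 3.14% of all. The motifs can overlap by the letters TT, and a match is a description of letters only.

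Immune receptor genes formed the second group, and most of the family lay on one side. Proteins with a TIR domain sense pathogen effectors or pass on that signal. Of 71 measured genes annotated with such a domain, 8 were higher, none was lower and 59 lay above the median of all rows, with a family median of 0.45. Over all protein-coding genes 0.625% were higher. The TIR, NB-ARC and WRKY families were picked from the annotation after the values were seen, so their counts only describe them. AT1G72920, a gene for a TIR-domain protein, stood at 7.71 FPKM in hos15 and 2.45 FPKM in pwr, with 7.49 in hda9, 1.55 in the double mutant and 3.004 in Col. Its relative AT1G72910 stood at 9.52 FPKM in hos15 and 3.24 FPKM in pwr, with 8.76 in hda9, 2.06 in the double mutant and 3.76 in Col. AT5G41740, a TIR receptor with a nucleotide-binding domain and leucine-rich repeats, stood at 10.7 FPKM in hos15 and 3.67 FPKM in pwr, with 7.26 in hda9, 2.07 in the double mutant and 3.11 in Col. These 3 were high in hos15 and hda9 and lowest in the double mutant, as WRKY33, WRKY40 and WRKY18 were. Their reads may be shared with similar genes, and how the authors assigned such reads is not stated.

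Among coiled-coil and other receptors with an NB-ARC domain, 29 were measured, 1 was higher and all 29 lay above the median of all rows, with a family median of 0.38. The gene past 2-fold was RPP13, a receptor for downy mildew, at 18.0 FPKM in hos15 and 7.60 FPKM in pwr, with 9.20 in hda9, 13.5 in the double mutant and 16.2 in Col. Here hos15 stood near Col and pwr was the lowest column. In the short list of known immune receptors all 19 measured members lay above the median of all rows, and the list median was 0.49. WRR4, a white rust receptor, stood at 11.2 FPKM in hos15 and 5.11 FPKM in pwr, a difference of 1.00 just under the 2-fold rule. The receptor gene RPS6 (AT5G46470), which acts against bacterial effectors, stood at 14.0 FPKM in hos15 and 7.26 FPKM in pwr. In the salicylic acid list 15 genes were measured, and WRKY70 alone reached 2-fold. EDS1, a lipase-like protein through which TIR receptors signal, stood at 5.57 FPKM in hos15 and 2.58 FPKM in pwr, a difference of 0.88.

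The third group consisted of transcripts that were low in every mutant and lowest in pwr. Over the 113 higher genes pwr was the lowest of the 5 columns in 86 and Col the highest in 74. Among all protein-coding genes pwr was the lowest in 34.3% and Col the highest in 41.6%. The 113 were selected for pwr lying below hos15, which favours pwr as the lowest column, so these counts only describe them. CHUP1, which anchors chloroplasts to actin for their movement, stood at 55.1 FPKM in hos15 and 21.8 FPKM in pwr, with 34.9 in hda9, 45.9 in the double mutant and 114 in Col. WEB1, also needed for light-driven chloroplast movement, stood at 3.66 FPKM in hos15 and 1.14 FPKM in pwr, with 2.22 in hda9, 3.495 in the double mutant and 15.2 in Col. NAI2, which builds the endoplasmic reticulum bodies that store defence enzymes, stood at 26.9 FPKM in hos15 and 10.6 FPKM in pwr, with 16.9 in hda9, 20.4 in the double mutant and 98.3 in Col. In each of these hos15 lay above pwr but far below Col.

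MFP1, a filament-like protein that binds DNA in plastids and nuclei, stood at 9.42 FPKM in hos15 and 3.75 FPKM in pwr, with 6.22 in hda9, 11.2 in the double mutant and 50.5 in Col. SHD, a chaperone of the endoplasmic reticulum, stood at 48.6 FPKM in hos15 and 20.9 FPKM in pwr, with 31.8 in hda9, 51.1 in the double mutant and 127 in Col. ABCF5, an ABC protein of the soluble F class, stood at 15.1 FPKM in hos15 and 6.21 FPKM in pwr, with 11.3 in hda9, 10.9 in the double mutant and 60.1 in Col. The dehydrin gene AT1G54410, whose product protects against drying, was the most strongly expressed of the 113 at 418 FPKM in hos15 and 184 FPKM in pwr, with 385 in hda9, 506 in the double mutant and 1512 in Col. Other members with a symbol were RIP5 (difference 1.37), the auxin-response repressor IAA2 (1.28), the drought-induced homeobox gene HB-7 (AT2G46680, 1.203) and FUS12, a subunit of the COP9 signalosome (1.16).

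Filament-like proteins, kinesins and nucleolar proteins were families picked from the annotation after the values were seen, so their counts only describe this group. Of 15 filament-like proteins 3 were higher, with a median of 0.52. Of 22 kinesin genes 2 were higher, with a median of 0.60, and AT4G39050 stood at 7.63 FPKM in hos15 and 3.12 FPKM in pwr. Of 37 genes for nucleolar and ribosomal RNA processing proteins 4 were higher, with a median of 0.44, and the NOP56-like gene AT5G27120 stood at 11.01 FPKM in hos15 and 4.58 FPKM in pwr. Cytosolic ribosomal proteins did not share this shift: none of 285 reached 2-fold, and their median was -0.02.

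The column differences moved with the base composition of the transcript. Across the 18079 protein-coding genes the difference between hos15 and pwr rank-correlated with the share of purines, A and G, in the transcript (Spearman rank correlation 0.49), a description over genes that share 2 columns. The 371 genes of up to 44% purine had a median of -0.24, and the 232 genes over 58% purine had a median of 0.51. In the lowest of these classes 2 genes were higher and 3 lower, and in the highest class 15 were higher (6.47%) and none lower. The higher genes had a median of 53.7% purine, the lower genes 47.8% and all protein-coding genes 50.6%. The rank correlation was 0.21 with transcript length, 0.20 with exon number and -0.17 with GC content.

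**Figure D4:**
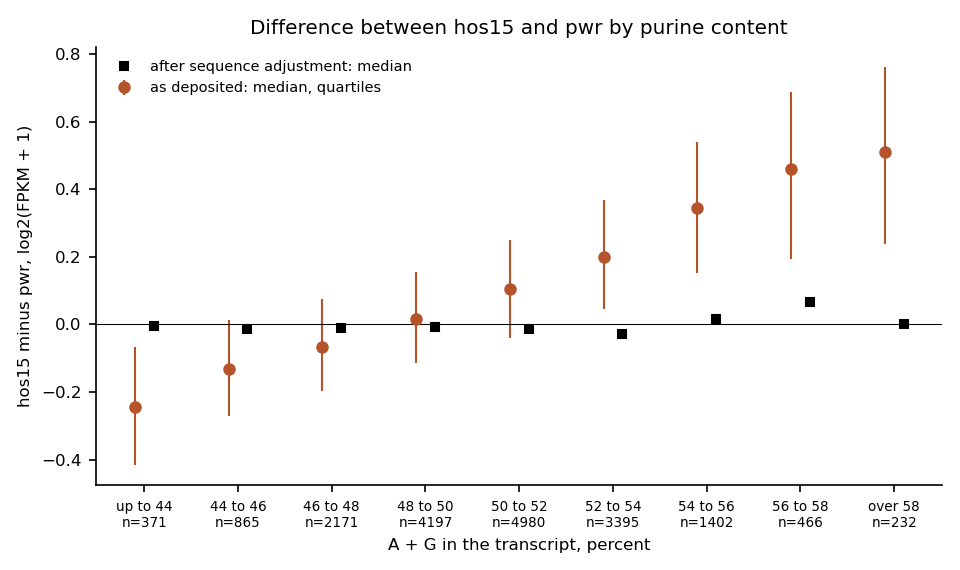
Difference between hos15 and pwr on the log2(FPKM + 1) scale by purine percentage of the transcript, with the number of genes per class. Round points are medians of the values as deposited with bars from the first to the third quartile, running from -0.24 to 0.51; squares are medians after sequence adjustment, which lie between -0.03 and 0.07.

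Coding stretches show what this composition looks like. Given below is the 90-nt window with the most purines within 1 coding exon, for the 3 genes of highest purine percentage among the named genes with the largest positive differences, then for the 3 of lowest percentage among those with the most negative ones. Sequences are RefSeq on build TAIR10.1, on the strand of the gene, and capitals mark runs of 6 or more A or G.
HB-7 chr2:19166007-19166096, minus strand: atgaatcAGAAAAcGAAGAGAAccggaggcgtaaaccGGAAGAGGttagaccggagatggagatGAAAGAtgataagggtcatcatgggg
MFP1 chr3:5432609-5432698, minus strand: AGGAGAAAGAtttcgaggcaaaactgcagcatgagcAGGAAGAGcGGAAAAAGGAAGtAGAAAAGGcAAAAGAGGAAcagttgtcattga
NAI2 chr3:5397815-5397904, minus strand: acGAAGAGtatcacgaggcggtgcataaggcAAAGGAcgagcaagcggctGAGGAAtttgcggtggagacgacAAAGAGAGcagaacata
AGP25 chr5:6233903-6233992, minus strand: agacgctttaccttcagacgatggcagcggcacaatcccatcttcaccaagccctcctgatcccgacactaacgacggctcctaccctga
AGP19 chr1:25809762-25809851, plus strand: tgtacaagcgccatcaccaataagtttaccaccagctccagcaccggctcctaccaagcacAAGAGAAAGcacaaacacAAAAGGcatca
EPF1 chr2:8983303-8983392, minus strand: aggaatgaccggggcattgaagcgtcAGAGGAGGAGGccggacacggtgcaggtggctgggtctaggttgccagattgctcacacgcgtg
The windows of HB-7, MFP1 and NAI2 held 74.4%, 76.7% and 72.2% purine, and the longest purine run, of 12 nt, was in MFP1. The windows of AGP25, AGP19 and EPF1 held 42.2%, 54.4% and 62.2% purine, and that of AGP25 held no run of 6 or more. Run length did not separate the windows: the longest was 11 nt in EPF1 and 9 nt in AGP19, against 8 nt in HB-7 and in NAI2.

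A sequence-adjusted difference is what remained after the trends with purine percentage, the densest 100-nt purine window, length and GC content were removed. Those trends accounted for 30.6% of the variance between hos15 and pwr. After adjustment 41 genes were higher (0.227%) and 23 lower (0.127%), of which 34 and 17 were among the 113 and 20 called before. The stress regulators kept 2-fold: WRKY33 at 1.28, CYP707A3 at 1.23, ERF105 at 1.23, WRKY40 at 1.19, WRKY18 at 1.05, ERF13 at 1.03, TCH4 at 1.03 and WRKY70 at 1.01. Of the 8 TIR genes called, 3 kept it: AT1G72920 at 1.16, AT5G41740 at 1.07 and AT1G72910 at 1.05. The other TIR genes stood between 0.73 and 0.80. RIP5 was the one gene of the third group named above that kept it, at 1.03. MFP1 stood at 0.58, WEB1 at 0.54, ABCF5 at 0.68, AT1G54410 at 0.69, SHD at 0.77, NAI2 at 0.80 and CHUP1 at 0.87. The wound, touch and ethylene list kept a median of 0.40 and the TIR family one of 0.21, while filament-like proteins had -0.01 and coiled-coil receptors 0.05. JAZ7 at 1.06 and DOT1, a gene linked to leaf venation, at -1.13 passed 2-fold only after adjustment. HOS15 itself, at 57.9% purine, stood at -0.94. On the lower side HEI10 at -3.55, CLE7 at -1.22 and CLE1 at -1.14 kept 2-fold, while EC1.4 at -0.51 did not.

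**Figure D5:**
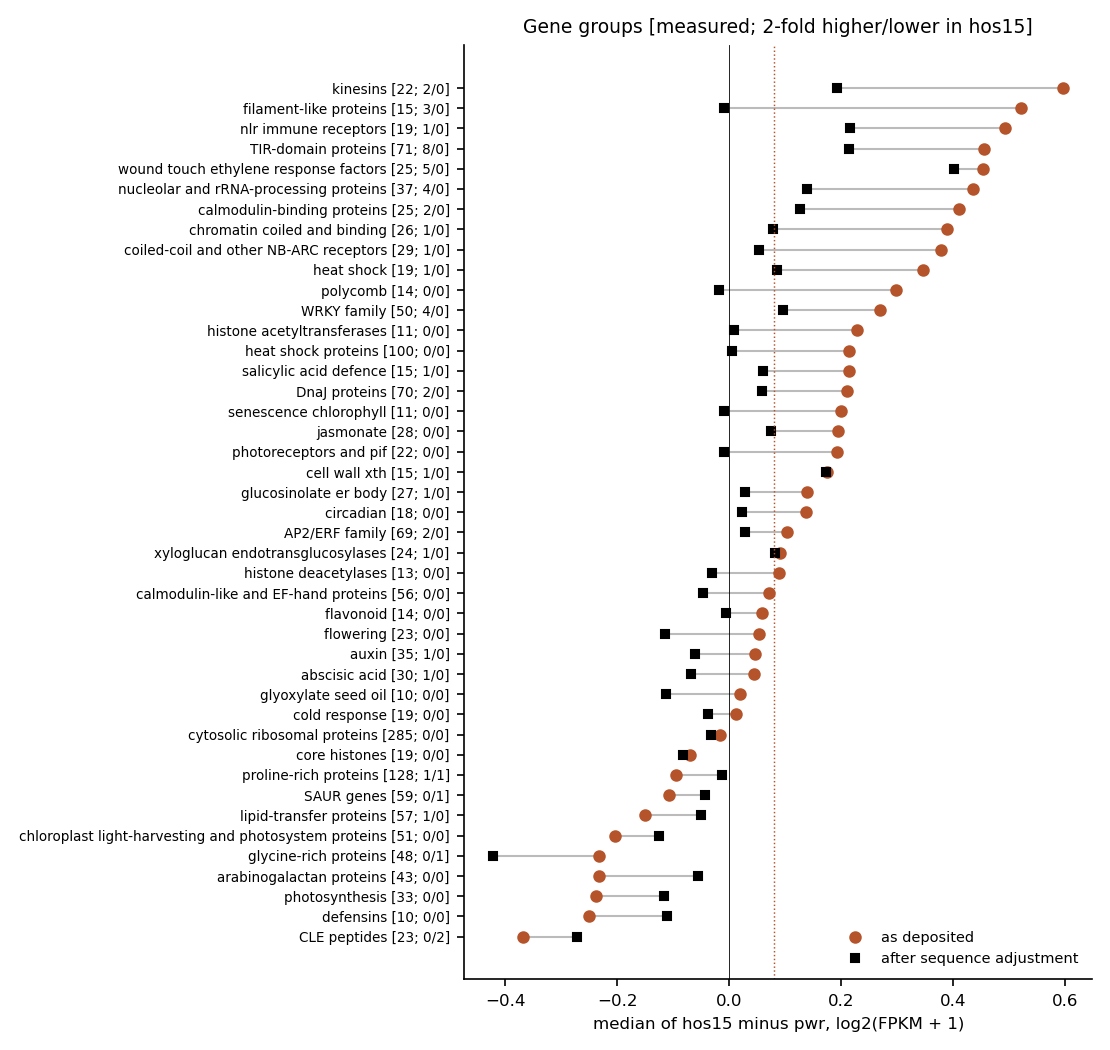
Median difference between hos15 and pwr of the gene lists and families that hold 10 or more measured members, as deposited (circles) and after sequence adjustment (squares). Brackets give the number measured and the numbers called higher and lower, and the dotted line marks the median of all rows, 0.08.

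The 20 protein-coding genes lower in hos15 than in pwr held 4 with a symbol: HEI10, CLE7, CLE1 and EC1.4. HEI10, a ubiquitin ligase that promotes crossovers in meiosis, stood at 0.816 FPKM in hos15 and 18.8 FPKM in pwr, with 1.56 in hda9, 4.86 in the double mutant and 3.53 in Col. Its difference was -3.45, and pwr alone stood far above Col. HEI10 overlaps 1 annotated gene on its own strand and 2 on the other, so its FPKM may hold reads of neighbours. The other 4 measured meiosis genes ranged up to 0.53, and none was called. The egg-cell gene EC1.4, whose product activates sperm at fertilisation, stood at 0.847 FPKM in hos15 and 2.87 FPKM in pwr, with 1.29 in hda9, 1.49 in the double mutant and 2.72 in Col.

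Genes for small secreted CLE signalling peptides lay on the lower side as a family. CLE7 stood at 0.753 FPKM in hos15 and 3.43 FPKM in pwr, with 0.445 in hda9, 2.57 in the double mutant and 2.29 in Col. CLE1 stood at 5.67 FPKM in hos15 and 14.0 FPKM in pwr, with 10.8 in hda9, 8.10 in the double mutant and 4.23 in Col. Of 23 measured CLE genes 2 were lower, none was higher and 20 had a negative difference, with a median of -0.37 and an adjusted median of -0.27. Over all protein-coding genes 0.111% were lower. The CLE family was picked after its values were seen, so its counts only describe it. CLE7 was low in hos15 and hda9, whereas CLE1 was high in pwr and hda9, so the members did not share one order of columns. CLE22 ran the other way, at 2.86 FPKM in hos15 and 1.42 FPKM in pwr.

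Other cell-surface and growth genes were looked at by family. Arabinogalactan proteins, heavily glycosylated proteins of the cell surface, had a median of -0.23 over 43 genes with none past 2-fold, and -0.05 after adjustment. AGP25 stood at 25.5 FPKM in hos15 and 43.3 FPKM in pwr, with 32.0 in hda9, 47.4 in the double mutant and 18.21 in Col. Glycine-rich proteins had a median of -0.23 over 48 genes, and -0.42 after adjustment over those long enough to be adjusted. DOT1 stood at 76.6 FPKM in hos15 and 141 FPKM in pwr, with 103 in hda9, 89.5 in the double mutant and 81.1 in Col. The extensin-like gene AT5G19810, the lowest in purine of those named at 35.9%, stood at 1.17 FPKM in hos15 and 3.77 FPKM in pwr, and its difference of -1.14 became -0.56 after adjustment. Of 59 auxin-responsive SAUR genes AT1G43040 alone was lower, at 1.32 FPKM in hos15 and 4.66 FPKM in pwr, and the median was -0.11. EPF1, a peptide that limits stomatal density, stood at 4.30 FPKM in hos15 and 8.31 FPKM in pwr, a difference of -0.81.

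Cold genes were described because HOS15 has a known part in cold responses. None of 19 measured genes was called, and the median was 0.01. DREB1A, an early cold regulator, stood at 2.24 FPKM in hos15 and 4.399 FPKM in pwr, with 2.52 in hda9, 5.37 in the double mutant and 1.65 in Col. Cold-induced genes went in both directions, with 8 of the 19 members below 0. COR47 stood at 206 FPKM in hos15 and 120 FPKM in pwr, LTI78 at 19.8 FPKM in hos15 and 11.3 FPKM in pwr, and ERD10 at 46.5 FPKM in hos15 and 27.5 FPKM in pwr. KIN2, another cold-induced gene, stood at 1310.3 FPKM in hos15 and 1931 FPKM in pwr, and COR15A at 96.6 FPKM in hos15 and 96.5 FPKM in pwr. After adjustment COR47, LTI78 and ERD10 had differences of 0.38, 0.31 and 0.23, and DREB1A -0.78. Plants were kept at 23 °C throughout.

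Photosynthesis genes were slightly lower in hos15 in the values as deposited. None of 33 measured genes was called, but 29 had a negative difference, with a median of -0.24 and an adjusted median of -0.12. Less the median of all rows, the list stood at -0.32 as deposited and at -0.01 with quantile normalization. LHCB2.1, a light-harvesting protein gene, stood at 479 FPKM in hos15 and 731 FPKM in pwr, with 623 in hda9, 562 in the double mutant and 662 in Col. The 3 guard cell markers lay on the other side. MYB60, a regulator of stomatal opening, stood at 6.97 FPKM in hos15 and 2.83 FPKM in pwr, with 4.71 in hda9, 5.59 in the double mutant and 11.1 in Col. Their summed level was 15.4 FPKM in hos15 and 8.10 FPKM in pwr, and all 3 were highest in Col. The phloem markers went opposite ways: SUC2 stood at 77.5 FPKM in hos15 and 114 FPKM in pwr, and APL at 5.43 FPKM in hos15 and 4.09 FPKM in pwr. The part of organ or cell proportions in any difference above was not tested.

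The libraries were made with an mRNA kit, and short RNAs gave the largest differences between hos15 and pwr. Of the 94 calls outside protein-coding genes of at least 300 nt, 49 were listed at 0 in hos15 or pwr. Of the 133 calls among protein-coding genes of at least 300 nt, 10 were. The 94 include protein-coding genes with a transcript under 300 nt, of which 24 were higher and 21 lower. The snoRNA AT3G47342 was listed at 0 in hos15 and stood at 133 FPKM in pwr, with 70.3 in the double mutant and 0 in hda9 and Col. The glutamate tRNA AT3G05525 stood at 100.01 FPKM in hos15 and was listed at 0 in pwr, hda9 and the double mutant, with 90.51 in Col. The precursor row of MIR394b was listed at 0 in hos15 and stood at 43.98 FPKM in pwr. A second snoRNA, AT2G35742, was at 0 in the same columns as AT3G47342, with 54.9 FPKM in pwr and 57.4 in the double mutant. The tRNA and MIR394b rows named here were at 0 in other sets of columns. Of 27 measured microRNA precursors 3 were higher and 6 lower, and of 29 snoRNAs 5 were higher and 8 lower.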

How the data were processed

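The authors deposited 1 table of FPKM values with a single column per genotype. Each mutant column is named for the 2 labelled libraries it pools. The wild-type column is named only WT, and was matched to Col because the Col libraries are the only wild-type ones. The submitters' processing notes name Cuffdiff, Cufflinks and TopHat2, with the genome build TAIR10; their versions and settings are not given in the sources used. The libraries came from a stranded mRNA kit, per the labels' protocols. Depth is unknown, and no replicate spread can be had.

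Of 33297 rows, 18912 that reached an FPKM of 1 in 2 or more of 5 columns were compared as log2(FPKM + 1), of which 212 join several loci under 1 label. Symbols, transcripts and sequences came from RefSeq on TAIR10.1, which matched 32350 rows. Sequence adjustment took residuals on cubic splines of purine percentage, densest 100-nt purine window, log2 length and GC percentage, in Python 3.11.15 with numpy 2.4.6, and was checked on simulated data.

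Genes with a symbol were named by rule: the mutated genes, the 15 largest differences each way at an FPKM of at least 2, the 5 largest each way after adjustment, the 4 largest each way among other classes, and up to 4 per list. The members and the 26 gene lists and 7 marker lists were chosen with earlier results of these data known. The 20 annotation families, and the genes named outside the rule (AT1G72920, AT1G72910, AT5G41740, AT5G19240, AT1G54410, AT4G39050, AT5G27120, AT1G43040, AT5G19810, CLE22, KIN2 and COR15A among them), were chosen after their values were seen.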

Additional observations from a re-analysis of the deposited data

How the results depend on the processing

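No paired analysis was possible because the hos15 and pwr columns each pool the libraries numbered 2 and 3, and leaving out a replicate could not be run for the same reason. Against 162 higher and 65 lower rows, a pseudocount of 0.1 gave 541 and 118, a mean FPKM of at least 5 gave 98 and 31, a 3-fold rule gave 35 and 27, and sequence adjustment gave 41 and 23. Quantile normalization gave 89 higher, and protein-coding genes alone gave 20 lower. Counts stayed within 1.5 times the main ones with no filter (186 and 92), median-ratio scaling (116 and 73), AT2G01021 left out (233 and 53) and joined loci left out (162 and 65). None of the 47 named genes past 2-fold changed sign under the 10 alternatives run, where an alternative kept the gene. Of these 47, 22 came under it after sequence adjustment, 10 with quantile normalization and 3 with median-ratio scaling. The depth is unknown, so counting error cannot be given, and it weighs most on rows of low FPKM and on short RNAs.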

Other observations

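Chromatin genes and developmental regulators differed little between hos15 and pwr. None of 13 histone deacetylase genes, 11 histone acetyltransferase genes, 14 polycomb genes or 19 core histone genes reached 2-fold, and the medians were 0.09, 0.23, 0.30 and -0.07. After sequence adjustment the polycomb median was -0.02 and that of the acetyltransferases 0.01. Of 26 genes for chromatin-binding and coiled proteins 1 was higher, and the median was 0.39, against 0.08 after adjustment. None of 18 clock genes, 23 flowering genes, 22 photoreceptor and PIF genes or 14 flavonoid genes was called. The clock gene PRR3 had the largest difference of its list, 0.88, at 15.2 FPKM in hos15 and 7.80 FPKM in pwr, with 27.6 in Col.

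Defensins, small antimicrobial proteins, had a median of -0.25 over 10 genes with no call, and 5 of the 10 were at least 2-fold lower in the double mutant than in hda9. In the list of wound, touch and ethylene-response regulators 17 of 25 were 2-fold lower in the double mutant than in hda9, with a median of -1.41. That share was 4 of 50 in the WRKY family and 9 of 71 among TIR genes. Over all protein-coding genes it was 1.33%. The lists were chosen with earlier results of these data known and the families after their values were seen, so these shares only describe them.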
